A study of Oryza sativa with 2 samples.

Results

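The genes described here encode enzymes of chlorophyll biosynthesis in rice, from the insertion of magnesium to the finished pigment. They were chosen by locus identifier and known role, not by a rule on their measured levels, although earlier results of these data were known. Of the 10 loci named for the pathway, 9 had values among the 38511 listed loci. The remaining enzyme, CRD1 (LOC_Os01g17170), a subunit of the cyclase that closes the fifth ring of the chlorophyll molecule, was not analysed here. The transcript data accompany a study of adenine methylation (N6-methyladenine) in the rice genome, whose methylation data were not analysed here. Polyadenylated RNA was sequenced from whole 3-week-old seedlings of the wild-type cultivar Nipponbare, a japonica rice, in 2 libraries of a single group. The plants received nutrient solution and short days, with 10 h of light before 14 h of darkness, under an intensity of 800 μmol per square metre per second. The labels do not say whether the libraries came from separate plants, and their spread can include technical variation. They do not give the hour of sampling either.

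Chlorophyll is made in the plastid by nuclear-encoded enzymes. Magnesium chelatase, built from the subunits CHLH, CHLD and CHLI, places magnesium in protoporphyrin IX and so commits the porphyrin to chlorophyll rather than haem. CHLM then methylates the product, the cyclase and the divinyl reductase DVR shape the ring, and protochlorophyllide oxidoreductase (PORA and PORB) carries out a reduction that needs light. Chlorophyllide a oxygenase (CAO1) makes chlorophyll b precursors, and chlorophyll synthase (CHLG) attaches the long phytyl tail.

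All 9 genes were expressed, and most stood among the abundant transcripts of the seedling. Levels are given in FPKM, fragments per kilobase of transcript per 1000000 fragments, which corrects for transcript length. A locus counted as expressed where its mean over the libraries was 1 FPKM or higher. By that mean all 9 genes were expressed, beside 49.8% of all listed loci, and each of the 9 was also above 1 FPKM in either library alone. The mean was 100 FPKM or higher for 5 of the 9, namely PORA, PORB, CHLI, CHLH and CAO1, beside 2.65% of all listed loci. The median over the 9 genes was 107 FPKM, against 9.91 FPKM over the 19187 expressed loci and 0.979 FPKM over all listed loci. The lowest of the 9, CHLD, was still above 84.0% of expressed loci, and the highest, PORA, was above 99.5% of them.

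**Figure D1:**
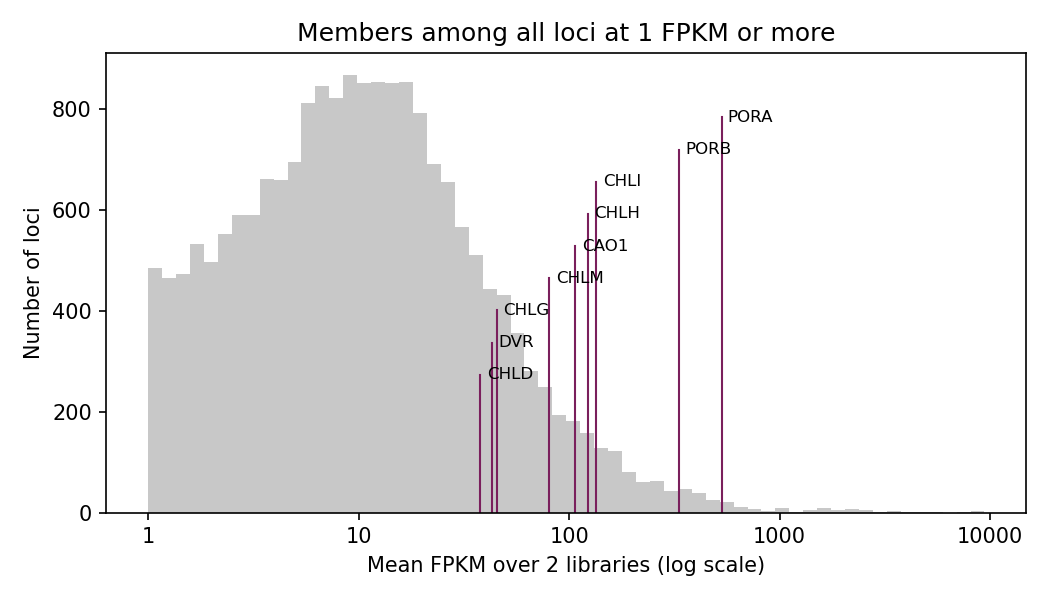
Histogram of the mean FPKM of the 19187 loci at 1 FPKM or more (horizontal log axis, number of loci on the vertical axis), with a line at the mean of each chlorophyll biosynthesis gene; line heights only separate the names. The 9 genes lie between 37.9 and 530 FPKM, to the right of the median expressed locus at 9.91 FPKM.

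At the first committed step, CHLH and CHLI were near each other and CHLD was far below both. CHLH (LOC_Os03g20700, chromosome 3), the large subunit that binds the porphyrin, had 135 FPKM in library 1, against 110 in library 2 (122 ± 17.6, SD, n = 2). CHLI (LOC_Os03g36540, chromosome 3), the subunit that hydrolyses ATP, had 150 FPKM in library 1, against 120 in library 2 (135 ± 20.7, SD, n = 2). The ranges of these subunits overlapped. CHLD (LOC_Os03g59640, chromosome 3), which joins CHLI in the complex that drives the reaction, had 43.2 FPKM in library 1, against 32.7 in library 2 (37.9 ± 7.43, SD, n = 2). Its highest value lay below the lowest value of both other subunits.

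The proportions between the chelatase transcripts varied little between the libraries. Per unit length, the ratio of CHLI to CHLD was 3.46 in library 1 and 3.68 in library 2 (3.57 ± 0.15, SD, n = 2). The ratio of CHLI to CHLH was 1.11 in library 1 and 1.09 in library 2. The ratio of CHLH to CHLD was 3.12 in library 1 and 3.37 in library 2. The summed level of the 3 subunits was 328 FPKM in library 1, against 263 in library 2, or 19.3% and 22.5% of the sum over the 9 genes.

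Of the steps between magnesium insertion and the light-dependent reduction, CHLM and DVR had values, and both were below the median of the 9. CHLM (LOC_Os06g04150, chromosome 6), which adds a methyl group to magnesium protoporphyrin IX, had 93.6 FPKM in library 1, against 67.7 in library 2 (80.6 ± 18.3, SD, n = 2). DVR (LOC_Os03g22780, chromosome 3), which reduces a vinyl side chain of the ring, had 50.8 FPKM in library 1, against 35.5 in library 2 (43.1 ± 10.8, SD, n = 2). The ranges of CHLM and DVR did not overlap, with a 1.87-fold difference between their means. DVR and CHLD did overlap.

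The POR genes had the highest levels of the 9. In angiosperms the enzyme depends on light, and in Arabidopsis the PORA transcript declines when dark-grown seedlings are lit whereas PORB persists in green tissue. In these light-grown rice seedlings PORA (LOC_Os04g58200, chromosome 4) had 678 FPKM in library 1, against 382 in library 2 (530 ± 210, SD, n = 2). PORB (LOC_Os10g35370, chromosome 10) had 384 FPKM in library 1, against 281 in library 2 (332 ± 72.8, SD, n = 2). PORA exceeded PORB within each library, at 1.77 times its level in library 1 and 1.36 times in library 2. The ranges of the 2 genes overlapped narrowly as deposited, since PORA in library 2 (382 FPKM) was just below PORB in library 1 (384 FPKM). The overlap was gone when both libraries were rescaled to a common sum or on the loci below 1000 FPKM, and it remained under median-ratio scaling. How the authors' counting treated reads that match related genes is not given in the sources used here, and sharing of reads between PORA and PORB was not tested.

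Of the summed FPKM of the 9 genes, most came from the POR genes. CRD1 and other genes of the pathway are not in this sum. PORA and PORB together had 1062 FPKM in library 1, against 663 in library 2, which was 62.5% and 56.8% of the sum over the 9 genes. PORA alone held 39.9% in library 1 and 32.7% in library 2, and PORB held 22.6% and 24.1%. The other 7 genes together had 638 FPKM in library 1, against 504 in library 2. In percentage points the PORA share moved most of the 9 between the libraries. Relative to its own size the CHLG share moved more, at 2.79% in library 1 and 3.68% in library 2. Shares sum to a whole, and the other 8 were all larger in library 2, where the PORA share was smaller.

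**Figure D2:**
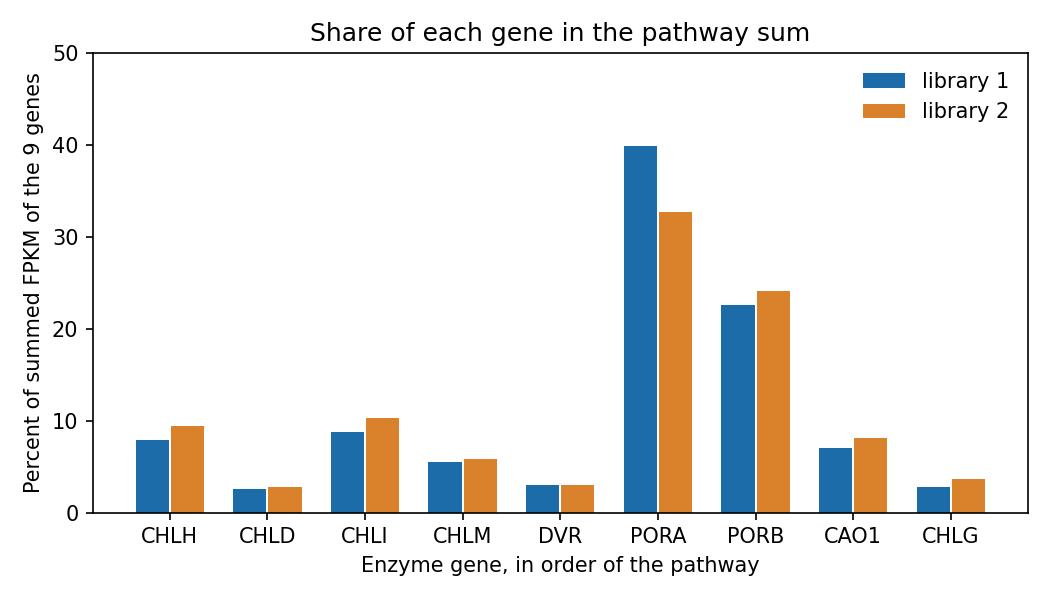
Share of each gene in the summed FPKM of the 9 genes (percent), for library 1 and library 2 side by side, with genes in the order of the pathway. PORA has the top share in both libraries, 39.9% in library 1 and 32.7% in library 2, and PORB the next.

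The genes for the last steps differed by more than the spread between libraries. CAO1 (LOC_Os10g41780, chromosome 10), which oxidises a methyl group on the way to chlorophyll b, had 119 FPKM in library 1, against 95.2 in library 2 (107 ± 16.9, SD, n = 2). CHLG (LOC_Os05g28200, chromosome 5), which completes both chlorophyll a and b, had 47.5 FPKM in library 1, against 43.0 in library 2 (45.2 ± 3.18, SD, n = 2). The ranges were well apart, and CAO1 stood at 2.51 times the level of CHLG in library 1 and 2.22 times in library 2. CHLG was the most even of the 9 genes, with a coefficient of variation of 7.03%, against 39.6% for PORA and a median of 19.6%.

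**Figure D3:**
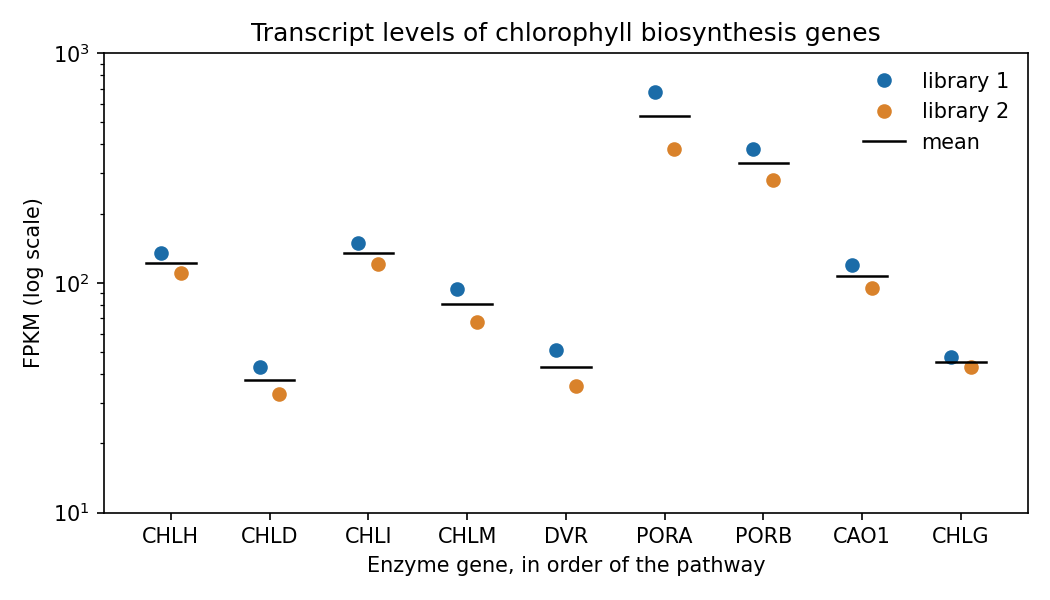
FPKM of each gene (vertical log axis) in library 1 and library 2 (points) with their mean (line), in the order of the pathway. PORA and PORB form the top pair, CHLD, DVR and CHLG the lowest 3, and every gene is higher in library 1.

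Ordered by mean level, the genes ran PORA, PORB, CHLI, CHLH, CAO1, CHLM, CHLG, DVR and CHLD, a 14.0-fold span. Of the 36 pairs of genes, 30 had ranges that did not overlap between the libraries. The share over pairs of all expressed loci was not computed, so this count is not read as particular to these genes. Among the 8 pairs of neighbours in this order, 5 had overlapping ranges and so did not differ beyond their spread across libraries: PORA with PORB, CHLI with CHLH, CHLH with CAO1, CHLG with DVR, and DVR with CHLD. Overlap across libraries takes no account of the higher level of all 9 genes in library 1. Within each library, 4 of these 5 pairs kept the same order, and CHLG with DVR did not. The 3 breaks were between PORB and CHLI (2.46-fold between means), between CAO1 and CHLM (1.33-fold) and between CHLM and CHLG (1.78-fold). The break between CAO1 and CHLM was narrow, at 95.2 FPKM for the lowest CAO1 value and 93.6 FPKM for the highest CHLM value, and was lost under median-ratio scaling. Both libraries gave the same order except that DVR was above CHLG in library 1 and below it in library 2.

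All 9 genes were higher in library 1 than in library 2. Each ratio is given as library 1 over library 2, as a difference in log2(FPKM + 1). Ratios were 0.83 for PORA, 0.51 for DVR, 0.46 for CHLM, 0.45 for PORB and 0.39 for CHLD. They were 0.32 for CAO1, 0.31 for CHLI, 0.29 for CHLH and 0.14 for CHLG. The median over the 9 was 0.39, and it was 0.36 without PORA. Over the 19187 expressed loci the median was -0.02 with an SD of 0.58, and 47.1% of loci were higher in library 1. No member was 2-fold apart, beside 6.75% of expressed loci in either direction.

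The ratio of PORA exceeded the SD over expressed loci, and the other 8 were smaller than that SD. For PORA, 95.2% of expressed loci had a lower ratio, and 8 of the 9 genes lay above the upper quartile of expressed loci at 0.23. The exception was CHLG, with 67.8% of expressed loci at a lower ratio. The share of loci higher in library 1 also varied with level. It was 44.9% of the 8530 loci at a mean of 10 to 100 FPKM, where the 4 members had ratios of 0.14 to 0.51 and the median over loci was -0.04. It was 59.0% of the 961 loci at 100 to 1000 FPKM, where the 5 members had ratios of 0.29 to 0.83 and the median over loci was 0.11. The part of level in the shared direction was not tested. With 1 library on each side there is no test of these ratios, and the genes of 1 library are not replicates of it. In RNA from whole plants, fewer green cells and less transcript per green cell cannot be told apart. The part of sampling hour or of separate plants was not tested either, because the labels give neither.

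**Figure D4:**
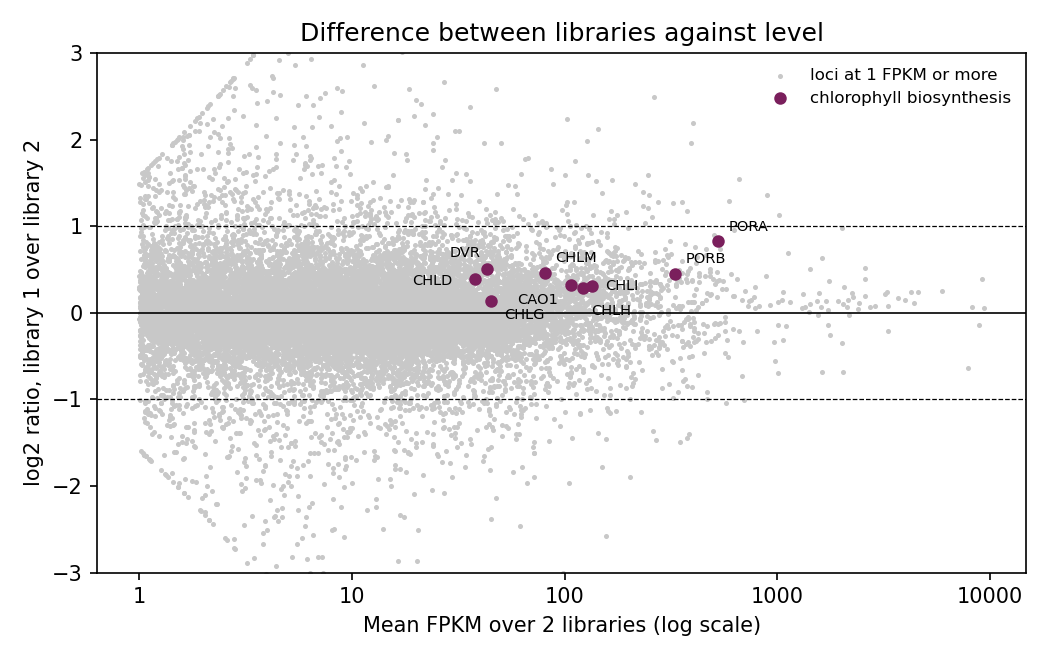
Log2 ratio of library 1 over library 2 against mean FPKM (log axis) for all loci at 1 FPKM or more (grey) and the 9 chlorophyll biosynthesis genes (purple, named); dashed lines mark a 2-fold difference, and 85 loci lie outside the plotted range. The 9 genes all sit above 0, between 0.14 and 0.83, and below the 2-fold line.

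Summed over the 9 genes, the pathway had 1701 FPKM in library 1, against 1167 in library 2 (1434 ± 377, SD, n = 2), a 1.46-fold difference. That was 0.254% of the summed FPKM of library 1 and 0.179% of that of library 2. The sums over all loci differed by 1.03-fold in the same direction. Without PORA the pathway sum was 1022 FPKM in library 1, against 785 in library 2, a 1.30-fold difference.

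Most of these genes stood above their nearest loci on the chromosome, and fewer did so when more loci were compared. Rice locus identifiers hold the chromosome and a number that grows along it, so each gene was set beside the 5 listed loci on either side. In mean FPKM, 6 of the 9 genes were above all 10 of these flanking loci, beside 17.3% of expressed loci and 8.77% of all loci placed in the same way. The 6 were PORA, PORB, CHLI, CAO1, CHLM and CHLD. With 10 loci on each side, the number was 2, PORB and CHLI. The share over all loci was not computed at that width, so this count is not read as particular to these genes. The shares of 17.3% and 8.77% are not matched for level. Each of the 9 genes was itself above at least 92.0% of all listed loci. The part of level in these counts was not tested.

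Against the single highest flanking locus, PORB stood furthest above. It was 11.0-fold above its highest flanking locus, LOC_Os10g35460 (30.1 ± 18.7 FPKM, SD, n = 2), and PORA was 6.82-fold above its own. CAO1 was 6.03-fold above its highest flanking locus and CHLI 5.59-fold. CHLD and CHLM exceeded theirs by 1.99-fold and 1.89-fold. Against the median of the 10 flanking loci, CHLI stood furthest above, at 247-fold, followed by PORB at 209-fold. Of the 10 loci around CHLI, 4 were expressed, and the median over all 10 was 0.546 FPKM.

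In mean FPKM, CHLH, CHLG and DVR had a flanking locus at or above their own level. CHLH was level with LOC_Os03g20630 (123 ± 12.0 FPKM, SD, n = 2), and their order reversed between the libraries. CHLH was above it in library 1 (135 against 114 FPKM) and below it in library 2 (110 against 131 FPKM). CHLG was just below LOC_Os05g28290 (52.5 ± 1.39 FPKM, SD, n = 2). DVR was below both of its 2 highest flanking loci and had the highest median flanking level of the 9, at 19.7 FPKM. Of its 10 flanking loci 8 were expressed, as for PORA.

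The loci around the genes were split in direction between the libraries. Of the 90 flanking loci, 57 were expressed, and 28 of these 57 (49.1%) were higher in library 1, against 9 of 9 for the genes themselves. The flanking loci were not matched in level, with a median of 4.64 FPKM over the 90, against 107 FPKM over the 9 genes. The difference between these shares was not tested, because loci of the same libraries are not replicates. 

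**Figure D5:**
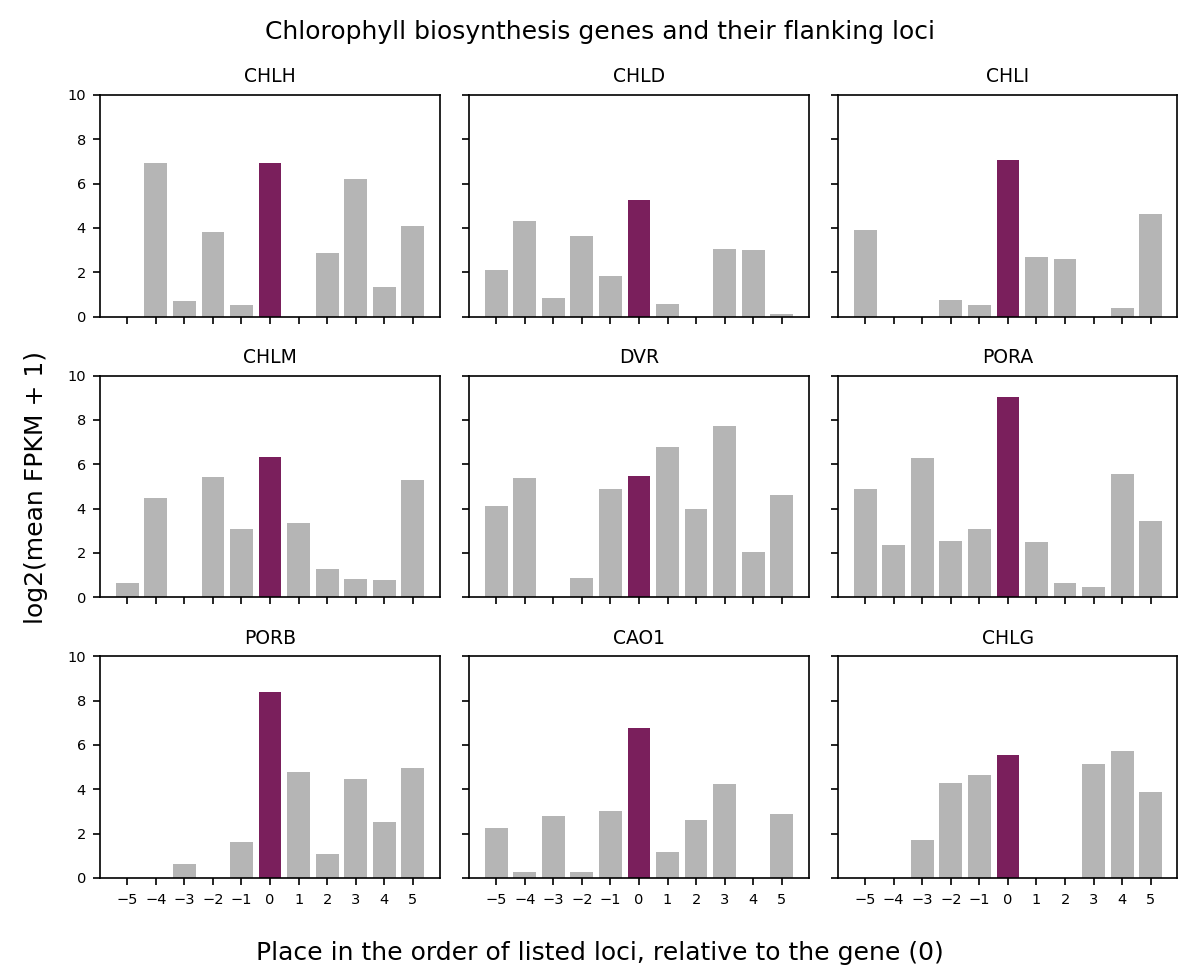
Level of each chlorophyll biosynthesis gene (purple) and of the 5 listed loci on each side (grey) as log2(mean FPKM + 1), by place in the order of listed loci. The gene is the highest bar in 6 of the 9 panels, and in the CHLH, CHLG and DVR panels a flanking locus is as high or higher.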

How the data were processed

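Each library came with 1 FPKM value per locus, deposited by the authors, per the file headers. Per the submitters' processing notes, Cufflinks was used. The sources used here do not give its version, the aligner, the genome build, the annotation or the use of strand. FPKM is already divided by transcript length and depth, so no count model was applied. The number of fragments is unknown. From the commonest ratio over 940 loci of very low level, library 2 was about 1.09 times as deep as library 1.

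The gene names come from the pathway definition. The reference table (assembly ASM3414082v1) held 7 of the 10 symbols, all 7 on the chromosome given by the identifier. It shared 1 identifier with the files, and that was no member. It paired 0 of 15 further pathway symbols with a listed locus, so those genes were not counted, and the labelled tissue was not checked against markers. Protein and promoter sequences were not used here.

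Means and SDs are over 2 libraries. Ratios used log2(FPKM + 1) and a filter at a mean of 1 FPKM. The 2-fold calls were checked on simulated data with larger planted differences and less spread than the real libraries. That setting is easier than the data, so it gives no error rate for them. All members were named, and flanking loci only where next to a member in level. The members and lists were chosen with earlier results of these data known. The direction between libraries and its windows of level were added after seeing the values. Alternatives were other scalings, pseudocounts, filters, thresholds, flank widths and single libraries. Python 3.11.15, pandas 2.3.3, NumPy 2.4.6, SciPy 1.17.1 and matplotlib 3.10.9 were used.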

Additional observations from a re-analysis of the deposited data

How the results depend on the processing

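The direction toward library 1 was added after seeing the data. It held for all 9 genes under every scaling and pseudocount tried, with single ratios between 0.10 and 0.86. A pseudocount shared by both libraries cannot change a direction, and each scaling moved the ratios of all 9 genes by about the same amount. These settings are therefore no independent support for the direction. No gene became 2-fold apart in any of these settings. Rescaling both libraries to a common sum of 1000000, which raises all values, moved the median level to 162 FPKM and the pathway sum to 2164 FPKM. The sum was 904 FPKM without PORA, which holds the highest level. Lowering the threshold for a high level to 20 FPKM gave 9 genes in place of 5. More loci of any kind pass a lower threshold, and the share of all listed loci at 20 FPKM was not computed. Widening the flanks to 10 loci on each side, which compares more loci, left 2 genes above all flanking loci in place of 6. No share over all loci was computed for the wider flanks. The number of pairs with ranges apart, 30 of 36 as deposited, was 28 under median-ratio scaling, where CHLI with CAO1 and CAO1 with CHLM came to overlap. It was 32 with a common sum or a sum over loci below 1000 FPKM, where PORA with PORB and CHLG with CHLD no longer overlapped. Each library alone left 4 or 5 genes at 100 FPKM or more, and the common sum gave 6. The share of all listed loci at that level was computed only for the mean as deposited. The order by overlapping ranges has no value with 1 library, and the promoter windows were not run. No paired comparison of conditions was possible because both libraries belong to a single group. The depth is unknown, so no counting error is given for any value.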
